A study of Mus musculus with 12 samples.

Results

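The genes described are 9 mouse genes of the histone deacetylation machinery: the class I deacetylase genes Hdac1, Hdac2 and Hdac3, the class IIa deacetylase genes Hdac4, Hdac5 and Hdac7, and the corepressor scaffold genes Ncor1, Sin3a and Sin3b. They are 9 of 26215 RefSeq genes and were found by name in 3 deposited tables. These are a list of 8977 regions called for the histone demethylase Jmjd2a (Kdm4a), a list of 10521 regions called for its relative Jmjd2c (Kdm4c), and a table of 6940 windows around start sites bound by both. All 9 genes were named in the Jmjd2c list, 6 in the Jmjd2a list and 7 in the table of co-bound windows. Being named there is how the genes were found, so these counts are not a result about them. The question addressed is which of these genes the demethylases occupy.

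The cells were mouse leukaemic granulocyte-macrophage progenitors (L-GMP) carrying the MLL-AF9 fusion, on the C57BL/6 strain. Every library came from cells with floxed Jmjd2a, Jmjd2b and Jmjd2c alleles and a tamoxifen-activated Cre expressed from Rosa26, so untreated cells carry these alleles too. Growth medium held 20% serum and 10 ng/ml interleukin-3. The 12 libraries form 8 groups: cells given 500 nM 4-hydroxytamoxifen (OHT) for 96 h and untreated cells, each with 1 Jmjd2a, 1 Jmjd2c, 2 H3K9me3 and 2 H3K36me3 libraries. The lines derive from leukaemic mice, with no number of lines or clones stated. The tables give positions with no height, score or value per library. Depth is therefore unknown, OHT cells were not compared with untreated cells, loss of Jmjd2a or Jmjd2c after OHT was not checked, the marks were not analysed here, and no replicate check of a peak exists. RNA was not measured, so the cell type could not be set against its marker genes.

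Histone deacetylases remove acetyl groups from histone tails, an activity tied to gene repression. Hdac1 and Hdac2 are the catalytic subunits of the Sin3, NuRD and CoREST complexes, whereas Hdac3 works with the NCoR scaffold. Class IIa enzymes have weak activity of their own and bind MEF2 transcription factors and the NCoR-Hdac3 complex. Jmjd2a itself has been found bound to NCoR and to deacetylases. Here the genes of these proteins are examined as sites of demethylase occupancy, which is a separate matter from contact between the proteins.

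Both demethylases were found near the starts of 7 of the 9 genes. Within 1000 bp of a start site named in the files, Jmjd2a lay at 7 of 9 genes, against 27.4% of all RefSeq genes, and Jmjd2c at 8 of 9, against 38.0%. Both lay at 7 of 9, against 24.5%. All 3 class I genes among the 9 carried both proteins, while Hdac8, a class I gene outside the 9, had Jmjd2c alone. Hdac5, Hdac7, Sin3a and Sin3b also carried both, Ncor1 carried Jmjd2c alone, and at Hdac4 the answer depended on which start site was used. With start sites of a RefSeq table added to those of the files, an alternative chosen after seeing the data, the counts were 8 of 9 for Jmjd2a (28.7% of all genes), 9 of 9 for Jmjd2c (39.7%) and 8 of 9 for both (25.6%). The 9 genes entered by being named in these same lists, whereas the set of all RefSeq genes also holds genes named in none. Their counts are therefore partly set by how they were chosen, and the shares of all genes are no like-for-like comparison. The 9 genes share their libraries and are not replicates, and no test was made of whether they differ from other genes.

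The sequences below are the 250 bases before the start site, 5′ to 3′ on the gene's strand, from RefSeq on build GRCm38.p6. CpG dinucleotides are in capitals, since CpG number is compared here between promoters with and without a called peak. The stretches of Hdac2, Hdac4 and the second Sin3a start lie wholly or mostly inside the span RefSeq gives these genes. Shown are, of the 9 genes, the one with the widest Jmjd2a peak (Hdac2) and the gene whose call turns on its start site (Hdac4). The gene with Jmjd2c alone (Ncor1) and both starts of Sin3a follow. Last comes Sin3b, with the fewest CpG among the genes with a peak and an entry in the RefSeq table.
Hdac2 (chr10:36974294-36974543, plus strand): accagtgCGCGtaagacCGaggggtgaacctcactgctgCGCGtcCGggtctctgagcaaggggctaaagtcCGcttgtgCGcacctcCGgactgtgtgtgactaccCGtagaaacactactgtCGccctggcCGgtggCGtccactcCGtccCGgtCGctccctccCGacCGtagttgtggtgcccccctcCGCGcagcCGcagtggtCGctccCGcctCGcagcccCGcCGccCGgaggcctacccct
Hdac4 (chr1:92180342-92180591, minus strand): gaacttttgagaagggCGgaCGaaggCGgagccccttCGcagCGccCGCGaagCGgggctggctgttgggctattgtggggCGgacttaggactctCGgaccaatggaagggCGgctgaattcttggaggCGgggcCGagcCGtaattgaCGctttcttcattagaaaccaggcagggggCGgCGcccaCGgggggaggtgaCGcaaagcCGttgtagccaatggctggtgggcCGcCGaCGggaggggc
Ncor1 (chr11:62457333-62457582, minus strand): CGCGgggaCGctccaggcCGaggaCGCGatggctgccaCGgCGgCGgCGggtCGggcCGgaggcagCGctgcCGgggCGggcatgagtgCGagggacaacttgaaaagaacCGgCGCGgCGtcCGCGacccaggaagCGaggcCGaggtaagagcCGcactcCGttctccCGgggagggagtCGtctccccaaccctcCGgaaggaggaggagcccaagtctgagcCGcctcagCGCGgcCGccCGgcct
Sin3a, first start (chr9:57071790-57072039, plus strand): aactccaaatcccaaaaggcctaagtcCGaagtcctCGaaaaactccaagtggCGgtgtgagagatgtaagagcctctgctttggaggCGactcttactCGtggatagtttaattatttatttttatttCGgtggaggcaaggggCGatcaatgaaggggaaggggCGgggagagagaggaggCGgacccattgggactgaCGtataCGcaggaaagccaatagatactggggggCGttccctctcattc
Sin3a, second start (chr9:57076126-57076375, plus strand): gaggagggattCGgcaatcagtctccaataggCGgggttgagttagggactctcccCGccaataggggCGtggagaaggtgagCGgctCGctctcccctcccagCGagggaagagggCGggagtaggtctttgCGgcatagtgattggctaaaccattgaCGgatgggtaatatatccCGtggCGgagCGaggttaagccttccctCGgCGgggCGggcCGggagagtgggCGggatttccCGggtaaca
Sin3b (chr8:72723020-72723269, plus strand): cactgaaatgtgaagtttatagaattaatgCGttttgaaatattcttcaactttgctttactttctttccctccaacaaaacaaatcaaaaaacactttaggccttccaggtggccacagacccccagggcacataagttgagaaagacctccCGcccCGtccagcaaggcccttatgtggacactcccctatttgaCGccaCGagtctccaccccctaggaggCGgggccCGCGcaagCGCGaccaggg

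In these stretches the number of CpG was 27 for Hdac2, 23 for Hdac4, 34 for Ncor1, 12 and 19 for the first and second start of Sin3a, and 10 for Sin3b. Of the 9 genes, 7 have entries in the RefSeq table, with 12 start sites in all. Hdac1 and Hdac3 have none there. The 9 start sites with a peak within 1000 bp held 10 to 34 CpG (median 21), and the 3 without one held 2 to 6 (median 5). The Hdac7 starts at 97831495 and 97831767, both among the 9, lie under the same peaks. The 3 without a peak are an internal start of Ncor1 with 2 CpG and other starts of Hdac7 with 5 and 6. Over 32851 RefSeq promoters the median was 18 CpG with both proteins, 15 with Jmjd2a alone, 16 with Jmjd2c alone and 3 with neither. The classes overlap, with 10 CpG in 372 promoters with neither and 5 CpG in 96 promoters with both. The Ncor1 stretch had more CpG than 96.5% of these promoters and the Sin3b stretch more than 62.2%.

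**Figure D1:**
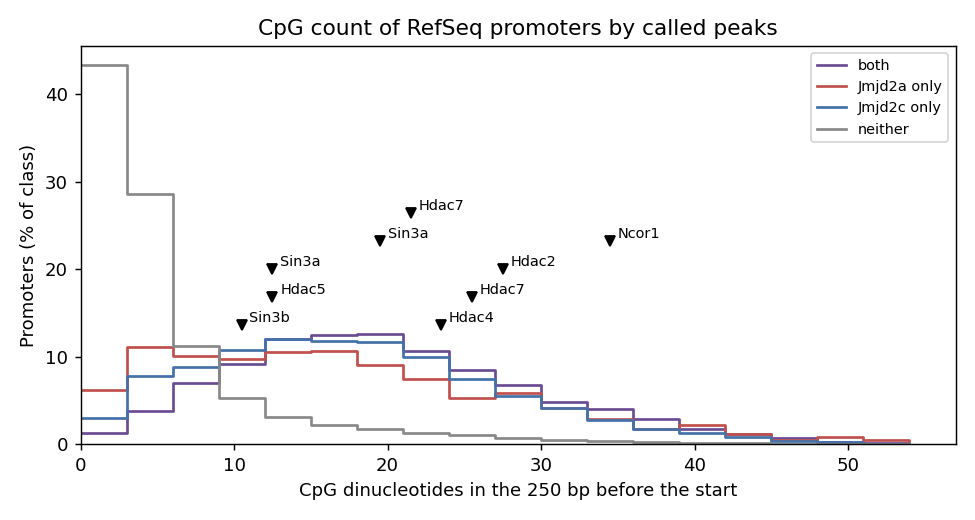
Number of CpG dinucleotides in the 250 bases before each RefSeq start site (horizontal axis) and the percentage of promoters of each class in bins of 3 CpG (vertical axis), for promoters with both proteins, Jmjd2a alone, Jmjd2c alone or neither within 1000 bp. Triangles mark the 9 start sites of the described genes that have a peak, from Sin3b at 10 to Ncor1 at 34, their height being without meaning, and all lie above the median of 3 for promoters with neither.

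Short promoter motifs were counted in the same stretches on both strands, each motif by itself. The GC box GGGCGG, bound by Sp and Klf factors, was in 8 of the 9 stretches at starts with a peak and in none of the 3 without. It was in 32.7% of all promoters, and in 63.9% of those with both proteins. The CCAAT box (CCAAT) was in 4 of the 9, against 33.8% of all promoters, at Hdac4, Hdac5 and both starts of Sin3a. The core of ETS factor sites, CCGGAAG, was in 1, at Ncor1, against 6.91% of all promoters. It was in 16.8% of promoters with both proteins and in 14.6% of those with Jmjd2c alone. The STAT pattern TTCNNNGAA was in 1, at the Hdac7 start used by the files, against 7.02%, and also at 1 of the 3 starts without a peak. The E-box CACGTG was in 0, against 6.02%. These are matches of letters, not sites shown to be bound.

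The paralogous genes Hdac1 and Hdac2 had Jmjd2c peaks of nearly equal width and Jmjd2a peaks of unequal width. Hdac1 (chromosome 4, 129516104 to 129542646, minus strand) carried 536 bp of Jmjd2a (129542066 to 129542601) and a Jmjd2c peak of 1687 bp (129541755 to 129543441). The Jmjd2a peak began 45 bp inside the gene, over an exon and intron, while the Jmjd2c peak reached 795 bp upstream and 891 bp downstream of the start. At Hdac2 (chromosome 10, 36974297 to 37001889, plus strand) the peaks spanned 1649 bp for Jmjd2a (36973759 to 36975407) and 1776 bp for Jmjd2c (36973760 to 36975535). They shared 1648 bp, and their upstream ends differed by 1 base. The Hdac2 peak of Jmjd2a was wider than 96.5% of the 6908 Jmjd2a peaks within 1000 bp of a start, and that of Hdac1 wider than 25.6%. Their Jmjd2c peaks were wider than 77.8% (Hdac2) and 72.7% (Hdac1) of 9053 such Jmjd2c peaks. Width is not a measure of signal, and it depends on depths and thresholds that are unknown for either list.

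Hdac3, the catalytic subunit of the NCoR complex, shares its promoter with Rell2, a divergent neighbour whose start in the files lies 571 bp away. The gene spans 37936971 to 37955015 on chromosome 18, minus strand. A Jmjd2a peak of 889 bp (37955066 to 37955954) covered the Rell2 start and ended 78 bp upstream of the Hdac3 start. The Jmjd2a list names Rell2 alone for this peak, and Hdac3 enters through the table of co-bound windows. The Jmjd2c peak of 1701 bp (37954401 to 37956101) covered both starts. Whether either peak belongs to one gene more than to the other cannot be told apart from positions.

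Of the class IIa genes, Hdac7, known for its role in lymphoid and endothelial cells, carried Jmjd2a over 1000 bp (chromosome 15, 97830852 to 97831851) and a Jmjd2c peak of 1592 bp (97830710 to 97832301), both over its start at 97831767 (minus strand). A further Jmjd2c peak of 482 bp (97825245 to 97825726) lay inside Hdac7 over intron and coding sequence, with no Jmjd2a peak on it. Hdac5, a class IIa gene known for its role in heart and muscle, had the narrowest Jmjd2a peak among the 9 genes, of 384 bp on chromosome 11 (102229768 to 102230151), wider than 8.66% of Jmjd2a peaks near starts. It ended 21 bp inside the gene from the start at 102230172, covered the start of the microRNA gene Mir8101 and was named for Mir8101 alone. The Jmjd2c peak there was 1474 bp (102229303 to 102230776) and covered the Hdac5 start. As at Hdac7, a second Jmjd2c peak, of 924 bp (102218553 to 102219476), lay within the Hdac5 gene over exon and intron, 10696 bp from the start, without Jmjd2a.

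Hdac4 carried both proteins at a RefSeq start that the deposited files do not use. The files put a Jmjd2a peak of 1215 bp (chromosome 1, 92179140 to 92180354) 30747 bp from the Hdac4 start and a Jmjd2c peak of 2106 bp (92179321 to 92181426) 30928 bp from it, and name no feature under either. The RefSeq table puts an Hdac4 start at 92180341 and the gene at 91928779 to 92195702, minus strand. Both peaks cover that base, Jmjd2a reaching 13 bp upstream and 1201 bp downstream, Jmjd2c 1085 bp upstream and 1020 bp downstream. They overlap by 1034 bp. By the start of the files Hdac4 has neither protein, and by the RefSeq start it has both. Of 1381 Jmjd2a peaks that the files place over 10 kb from a start, 24 (1.74%) cover a RefSeq start of the very gene named for them, and of 905 such Jmjd2c peaks 42 (4.64%) do.

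Ncor1, the scaffold that holds Hdac3, was the gene with Jmjd2c and no Jmjd2a. Its Jmjd2c peak spanned 2920 bp (chromosome 11, 62456268 to 62459187), the widest of the 9 genes and wider than 98.7% of Jmjd2c peaks near starts. It covered the Ncor1 start at 62457332 (minus strand) and the start of the divergent gene Pigl, which encodes an enzyme of GPI anchor synthesis, 1128 bp away. The nearest Jmjd2a peak lay 175 kb off, at Ttc19, and no Jmjd2a peak overlapped the gene (62315663 to 62457414). A missing call does not show that the protein is missing.

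The Sin3 scaffold genes carried both proteins. Sin3a (chromosome 9, 57071991 to 57128368, plus strand) did so at each of its 2 starts in the files. At the first start (57072040) a Jmjd2a peak of 425 bp (57071502 to 57071926) ended 114 bp upstream, and a Jmjd2c peak of 2195 bp (57071318 to 57073512) covered the start together with that of the noncoding gene Gm10658, 74 bp away. At the second start (57076376) the Jmjd2a peak of 698 bp (57076470 to 57077167) began 94 bp downstream, and the Jmjd2c peak of 806 bp (57076373 to 57077178) began 3 bp before the start. Between them a Jmjd2c peak of 1097 bp (57073780 to 57074876) had no Jmjd2a on it. Sin3b (chromosome 8, 72723270 to 72758203, plus strand) had 1 peak of each protein over its start, 987 bp for Jmjd2a (72723102 to 72724088) and 1242 bp for Jmjd2c (72722932 to 72724173).

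**Figure D2:**
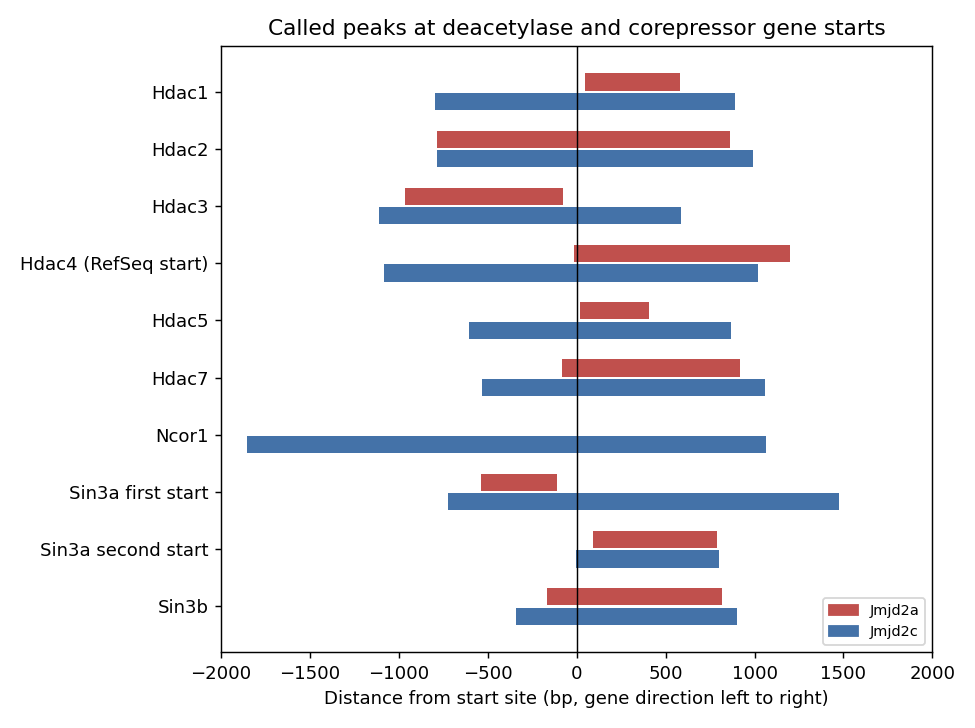
Called peaks of Jmjd2a and Jmjd2c about each start site, drawn in the direction of the gene, with distance from the start in bp on the horizontal axis and 1 row per start site. Jmjd2c bars cross the start in every row, Jmjd2a bars stop short of it at Hdac1, Hdac3, Hdac5 and both Sin3a starts, and Ncor1 has no Jmjd2a bar. The Hdac4 row uses the RefSeq start, and peaks that lie further inside Hdac5, Hdac7 and Sin3a are not drawn.

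The called peaks of the proteins differed in how they lay about the start. Jmjd2c peaks near starts were also the wider (median 1366 bp, against 761 bp), and a wider peak is more apt to cover a start. How far width accounts for the difference was not tested. At the 8 start sites of these genes with both proteins in the files, Jmjd2a covered the start at 3 (Hdac2, Hdac7 and Sin3b), lay wholly downstream at 3 (Hdac1, Hdac5 and the second Sin3a start) and wholly upstream at 2 (Hdac3 and the first Sin3a start). Jmjd2c covered all 8. Over the 6940 co-bound windows of the authors' deposited table, Jmjd2a covered 67.2% of starts and Jmjd2c 94.1%. The median reach at the 8 sites was 126 bp upstream and 685.5 bp downstream for Jmjd2a, and 663 bp upstream and 897 bp downstream for Jmjd2c. Over all co-bound windows it was 389 and 539 bp for Jmjd2a, and 624 and 829 bp for Jmjd2c. Of the 9 Jmjd2a peaks near starts of these genes, Hdac4 included, 7 lay wholly inside a Jmjd2c peak. The exceptions were Hdac2, where 99.9% of the Jmjd2a peak lay inside, and Hdac4, where 85.1% did. Of all Jmjd2a peaks near starts 55.4% lay wholly inside Jmjd2c peaks.

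Jmjd2a peaks were narrower than Jmjd2c peaks at all 7 genes that had both in the files. The widest Jmjd2a peak of each gene had a median of 889 bp (384 to 1649 bp, 7 genes), and the widest Jmjd2c peak a median of 1694 bp (1242 to 2920 bp, 8 genes). Over all RefSeq genes with a call the medians were 804 and 1428 bp. The difference, Jmjd2a minus Jmjd2c, had a median of -812 bp. It was -127 bp at Hdac2 and -255 bp at Sin3b, and -1151 bp at Hdac1. At Sin3a it was -1497 bp, but this sets the Jmjd2a peak of the second start against the Jmjd2c peak of the first. Between peaks that overlap each other it was -1770 bp at the first Sin3a start and -108 bp at the second, so the place of Sin3a among the genes turns on the pair taken. With the pair of greatest overlap for each gene the median was -592 bp. Over the 6432 genes with both the median was -571 bp, and Jmjd2c was wider at 86.8%. These values take the widest peak of each protein, so they are to be set beside the -812 bp and not the -592 bp. Jmjd2a width ran from 26.1% of the Jmjd2c width at Hdac5 to 92.8% at Hdac2. The direction seen at the 7 genes is that of the lists as a whole.

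**Figure D3:**
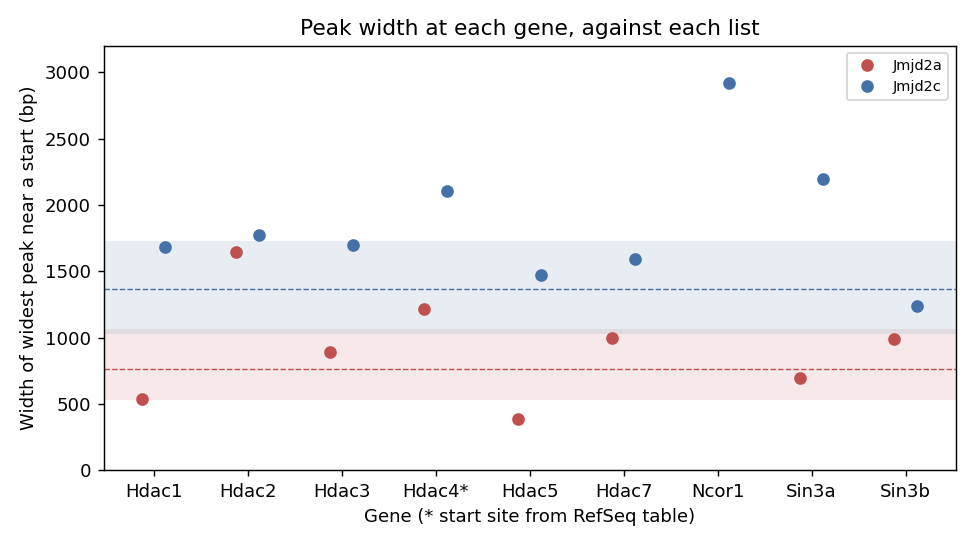
Width in bp (vertical axis) of the widest Jmjd2a and Jmjd2c peak within 1000 bp of a start of each gene (horizontal axis). Dashed lines and bands give the median and interquartile range over all peaks of each list near starts, 761 bp (530 to 1062) for Jmjd2a and 1366 bp (1031 to 1729) for Jmjd2c. Hdac2 and Hdac4 lie above the Jmjd2a band, Hdac5 lies below it, and Ncor1, Sin3a, Hdac4 and Hdac2 lie above the Jmjd2c band.

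For each gene with both proteins by the files, the gene with the most similar pair of widths was found, over the 2 lists and by the summed difference in bp. For Hdac3 and Hdac5 these were their own neighbours Rell2 and Mir8101, which share the same peaks. For Hdac1 it was Kif13b (537 bp for Jmjd2a, 1692 bp for Jmjd2c), for Hdac7 Dcaf10 (1003 and 1584 bp), and for Sin3a Sertad2 (702 and 2207 bp). The Sin3a widths matched were those of Jmjd2a at the second start and Jmjd2c at the first, so neither Sin3a start has that pair. For Sin3b the most similar gene was Ccdc157 (991 and 1243 bp), tied with other genes, and for Hdac2 Fpgt (1670 and 1810 bp), likewise tied. The summed difference ran from 0 bp at Hdac3 and Hdac5 to 55 bp at Hdac2.

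Most related genes, among them complex subunits, other deacetylases and MEF2 factors, had Jmjd2c near a start. The share with both proteins differed between the groups. Of 50 related genes, Jmjd2a lay near the start of 32 (64.0%, against 27.4% of all genes) and Jmjd2c near that of 42 (84.0%, against 38.0%), and all 32 Jmjd2a genes had both. The Sin3 complex, the assembly built on Sin3a and Sin3b, had both proteins at 13 of 15 genes and Jmjd2c at all 15. These 15 include Rbbp4 and Rbbp7, which were counted under Sin3 and not under NuRD. The CoREST complex had both at 6 of 6. Other deacetylases had both at 6 of 12, NuRD at 3 of 9 (33.3%) and MEF2 factors at 2 of 4. Of all RefSeq genes, 24.5% had both. Differences between these groups were not tested.

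In the Sin3 list the widest Jmjd2a peaks lay at the subunit gene Sinhcaf, called Fam60a in the files (1824 bp for Jmjd2a, 2981 bp for Jmjd2c), at the histone reader gene Ing1 (1278 and 1774 bp) and at Suds3 (1125 and 1491 bp). In CoREST they lay at the scaffold genes Rcor3 (2194 and 2754 bp) and Rcor2 (790 and 1919 bp) and at the demethylase gene Kdm1a (996 and 1709 bp). The Jmjd2a peak nearest the Rcor2 start lay 741 bp from it, whereas that of Rcor3 covered the start. Rcor3 and Sinhcaf had wider Jmjd2a peaks than any of the 9 genes. In the NuRD remodelling complex both proteins were at Mta1 (1343 and 1612 bp), Mta3 (530 and 1591 bp) and the methyl-CpG binding gene Mbd2 (453 and 983 bp). Mta2, Chd3, Chd4 and Gatad2a, named after their values were seen, had Jmjd2c alone. Tbl1x, which encodes a partner of the Ncor1 scaffold, had both (1053 and 1887 bp), and its paralogue Tbl1xr1, likewise named after its value was seen, had Jmjd2c alone (1266 bp).

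The NAD-dependent deacetylase genes Sirt3 (1227 bp for Jmjd2a, 1529 bp for Jmjd2c), Sirt1 (982 and 2150 bp) and Sirt6 (910 and 1370 bp) had both proteins. Mef2a (1605 and 1901 bp) and Mef2d (998 and 2432 bp), encoding partners of class IIa enzymes, did too. By the files 8 related genes had neither protein near a start, namely Hdac9, Sirt5, Sirt7, Gps2, Mbd3, Gatad2b, Mef2b and Mef2c. With RefSeq start sites added, Sirt5 (1212 bp) and Gatad2b (1156 bp) had a Jmjd2c peak and Mef2c a Jmjd2a peak (650 bp, 496 bp from the start), leaving 5 with neither. The fourth class IIa gene, Hdac9, was one of these 5, with its nearest Jmjd2a peak 10034 bp from the start.

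**Figure D4:**
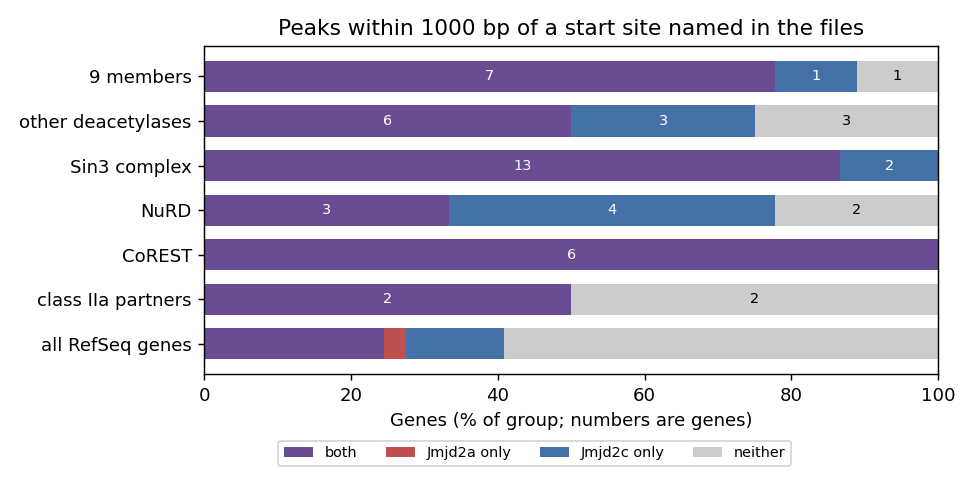
Percentage of genes in each of 5 related groups, the 9 genes described and all RefSeq genes (horizontal axis, numbers in the bars are genes) with both proteins, Jmjd2a alone, Jmjd2c alone or neither within 1000 bp of a start site named in the files. The 9 genes described have both at 7, the Sin3 complex at 13 of 15 and CoREST at 6 of 6, and no group but the 26215 RefSeq genes has a gene with Jmjd2a alone.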

How the data were processed

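The 9 genes and the related list were chosen with earlier results of these data known, and no count of them is independent support. The submitters' processing notes name build mm10 and the tools bedtools 2.25.0, Bowtie 0.12.7 and SAMtools. How peaks were called, at which threshold and from which libraries is not stated in the sources used. The authors deposited positions and distances in bp, per the file headers, and no other quantity. Positions were read as counted from 0 and are printed counting from 1.

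A gene was called where a peak lay within 1000 bp of a start site that the files name for it, by RefSeq accession or symbol. Names were brought to present symbols with a RefSeq table on GRCm38.p6, whose chromosomes are those of mm10. Of 5569 start sites of the co-bound table whose gene is in the RefSeq promoter table, 80.8% fell on the same base and 94.7% within 100 bp. Peaks were called overlapping at 1 bp or more. All 26215 RefSeq genes with curated transcripts on the numbered, X and Y chromosomes formed the background. The files name only start sites near peaks, so a gene with none named counted as without a call.

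No p-value was computed. Calling near start sites was tested on simulated peaks, and the count of shared bases was checked only on a constructed pair of peaks. Named are the 9 genes, their promoter neighbours, up to 3 co-occupied related genes per group by Jmjd2a width, and related genes with neither protein, a gene that this rule names not being reported here, and with likeness as the smallest summed difference of both widths. Width stood in for a score, which the lists lack. Alternatives were windows of 500 and 5000 bp, a peak over the start itself, the wider 50% of each list, rows naming 1 gene, stricter overlap, other width rules and, added after seeing the data, RefSeq start sites. Python 3.11.15, numpy 2.4.6, pandas 2.3.3 and matplotlib 3.10.9 were used.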

Additional observations from a re-analysis of the deposited data

How the results depend on the processing

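Windows of 500 and 5000 bp and RefSeq start sites moved the counts of genes with Jmjd2a, Jmjd2c or both by at most 1 of 9. Of all genes, 23.8% had both with the window of 500 bp and 25.6% with that of 5000 bp. Counting only rows that name 1 gene gave Jmjd2c at 7 of 9 (35.2% of all genes). It could not change the count with both, because the co-bound table names those 7 genes in rows of their own. Both overlap rules left 7 of 9 with both. Of all genes, 24.2% had both with an overlap of at least 1 bp and 23.9% with at least 50% of the shorter peak. Where the peak had to cover the start site, Jmjd2a was at 3 of 9 genes and both proteins at 3 of 9 (18.9% and 16.6% of all genes) and both were at 18 of 50 related genes. With the wider 50% of each list, Jmjd2a was at 4 of 9 (16.5% of all genes), Jmjd2c at 7 of 9 (22.9%), both at 3 of 9 (10.0%), and both among related genes at 17 of 50. These alternatives keep fewer peaks by construction. The median Jmjd2a width was 993.5 bp over all peaks naming a described gene, which name 6 of the 9, at any distance. It was 938 bp over the 8 genes with Jmjd2a when RefSeq start sites were added. The median Jmjd2c width was 1639.5 bp over all peaks naming the 9 genes and 1701 bp over 9 genes with RefSeq start sites. These medians therefore cover different sets of genes or peaks. The median width difference, Jmjd2a minus Jmjd2c, was -592 bp between overlapping peaks and -851.5 bp with RefSeq start sites, negative under each rule tried. No paired analysis was possible because the tables hold no value per library. Weak sites missed at an unknown depth limit every absence reported, that of Jmjd2a at Ncor1 included.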

Other observations

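Related genes on the X chromosome were set beside those on the autosomes after their calls had been seen. Of the 4 X-linked ones, each with Jmjd2c, the scaffold partner gene Tbl1x also had Jmjd2a, and Hdac6, Hdac8 and Rbbp7 did not. On the autosomes 31 of 38 related genes with Jmjd2c had Jmjd2a as well. Over all RefSeq genes, 92 of 283 X-linked genes with Jmjd2c also had Jmjd2a (32.5%), against 6338 of 9663 on the autosomes (65.6%). None of the 9 genes described is X-linked. The difference was not tested.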
